A study of Arabidopsis thaliana with 7 samples.

Results

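Roots of wild-type Arabidopsis thaliana (accession Col-0) that had spent their last 2 d on low nitrogen are described here by the abundance of their transcripts. The material is the 3 Col-0 samples, labelled replicates 1, 3 and 4, of the 7 samples of the series. Each library was scaled to CPM, the counts of a gene per 1000000 counts of its library, and all 32548 nuclear gene identifiers of the 32833 rows were ranked by mean CPM. Col-0 seedlings grew for 7 d on full nutrition (FN) plates, whose nitrogen came from nitrate (KNO3, 2 mM), NH4NO3 (1 mM) and glutamine (1 mM). They then spent 2 d on low nitrogen (LN) plates, where KNO3 was cut to 0.1 mM and NH4NO3 to 50 µM, and KCl stood at 3 mM. A sample pooled the roots of 50 seedlings from 5 plates, and the samples came from 4 independent experiments. The study set these roots against those of cepd, a quadruple glutaredoxin mutant, which is not used here, and its authors left out 1 Col-0 sample that held leaf material. With a single genotype and a single condition there is no contrast to test, so the values are descriptions, each with its spread over n = 3 libraries, and they do not separate what low nitrogen does from what roots do in general. In bulk roots, fewer cells of a type and less RNA per cell cannot be told apart.

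Roots short of nitrate take it up at low concentration through NRT2 carriers, which need the partner protein NRT3.1. Nitrate is reduced by nitrate reductase and then by nitrite reductase, which takes its electrons from ferredoxin in root plastids. The ammonium is built into glutamine and glutamate by glutamine synthetase and glutamate synthase. Nitrogen leaves the root for the shoot through the xylem, as nitrate or as amino acids.

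The 3 libraries held 37943945, 37292558 and 38474492 counts in replicates 1, 3 and 4, the order in which values per library are given throughout. Organelle genes took 0.0312% to 0.0392% of the counts. No count was listed for 7378 nuclear genes, 18834 had a mean of at least 1 CPM and 12913 of at least 10 CPM. A count of 0 allows up to 3 counts, which is 0.078 to 0.0804 CPM per library. Intervals and such floors cover counting error only, since the reads carried no molecular identifiers. Every pair of libraries differed by far more than counting alone, with a mean chi-square per gene between 22.6 and 50.4, so none was a repeat of another.

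Root markers were present, and so were some genes of green tissue. All 17 root markers had counts, and 15 of them reached 5 CPM, among them CASP1, a Casparian strip protein of the endodermis, at 107 ± 6.37 CPM (SD, n = 3), the root hair gene COBL9 at 61.2 ± 5.24 CPM and SHR, which patterns the root layers, at 41.0 ± 2.89 CPM. The summed root markers came to 6490, 5492 and 5133 CPM, most of it from PYK10, and to 788, 699 and 711 CPM without that gene. The 29 leaf and shoot markers summed to 611, 458 and 468 CPM. The highest were GLDP1, a subunit of the glycine cleavage system, at 217, 180 and 146 CPM, the antenna gene LHCB1.3 at 70.3, 44.4 and 54.8 CPM, PSBO1 of photosystem II at 64.1, 45.6 and 48.7 CPM and the Rubisco small subunit gene RBCS1A at 46.4, 37.2 and 37.8 CPM. Of the stomatal and leaf identity genes among them, GL1 and MUTE had no count, FAMA had 1 count in all, YAB3 had 2 and YAB1 had 3. SPCH and TMM stood at 0.149 and 0.396 CPM, while AS1, a regulator of leaf patterning, reached 17.43 CPM. LHCB1.5 was listed at 0 as well, but its exons are wholly covered by another gene. Of the 13 leaf markers that reached 5 CPM, 12 were highest in replicate 1, and of 32 nuclear photosynthesis genes at that level 28 were, against 38.6% of all genes. Their summed CPM was 885, 658 and 751, and none ranged over 2-fold between libraries. The part of green tissue in the results that follow was not tested.

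Counts were spread over many genes. The most abundant transcript held 0.497 ± 0.0659% of nuclear counts (SD, n = 3), the top 10 held 3.64 ± 0.0882%, the top 100 held 14.1 ± 0.125% and the top 1000 held 44.7 ± 0.535%. The 95% Wilson interval of such a share in a single library was at most 0.016 percentage points wide on either side, far less than the spread between libraries. It took 1325 genes to reach 50% of the counts, and 1355, 1309 and 1286 within each library. Genes over 1000 CPM numbered 58 and held 10.3% of the counts, while the 2028 genes between 100 and 1000 CPM held 48.8%. Protein-coding genes made up 99.8% of the total. The libraries largely shared their most abundant genes, with 82 genes in the top 100 of all 3 libraries and 122 in the top 100 of any.

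**Figure D1:**
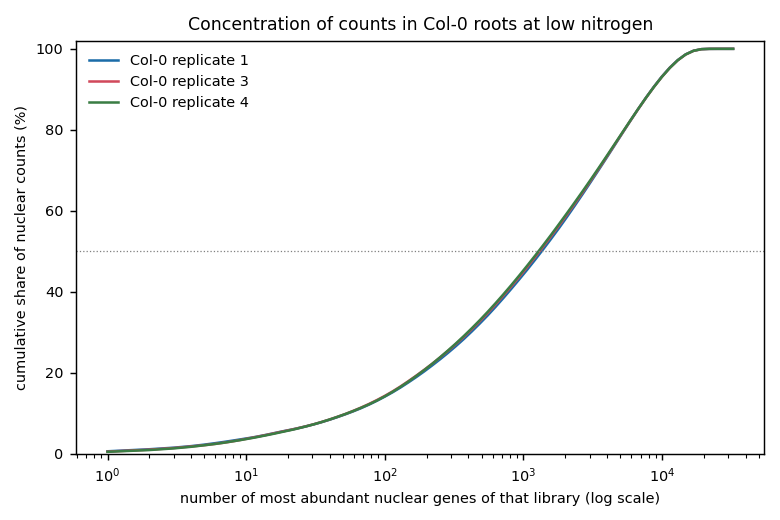
Cumulative share of nuclear counts (y axis, percent) against the number of most abundant nuclear genes of that library (x axis, log scale), a line for each of Col-0 replicates 1, 3 and 4. The lines run close together and cross 50% (dotted) at 1355, 1309 and 1286 genes.

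PYK10, a beta-glucosidase stored in the endoplasmic reticulum bodies of root cells, was the most abundant transcript at 5702, 4793 and 4422 CPM. It headed the list per kb of exon as well, at 2753 ± 365 CPM per kb. The next genes, ATMS1 at 5029, 4856 and 4347 CPM and HOG1 at 3811, 4073 and 3855 CPM, encode methionine synthase and S-adenosyl-L-homocysteine hydrolase, which work in turn in the methyl cycle. PYK10 and ATMS1 overlapped in their ranges over the libraries and cannot be ordered by CPM. SAMDC, which draws on S-adenosylmethionine for polyamines, stood at 1391, 1373 and 1324 CPM.

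The other genes of the top 30 fell mainly into housekeeping work. Cytosolic sugar breakdown was represented by the aldolase FBA8 at 3078 ± 283 CPM, GAPC1 at 2950 ± 459 CPM, GAPC2 at 2543 ± 209 CPM and the enolase LOS2 at 2464 ± 113 CPM, with the cytosolic malate dehydrogenase c-NAD-MDH1 at 1829 ± 71.2 CPM. GAPC1 was lowest in replicate 1, at 2432 CPM against 3110 and 3308 CPM. Translation supplied the elongation factor gene AT5G60390 at 3788, 3816 and 3892 CPM, LOS1, the eEF2 gene, at 2122 ± 86.0 CPM, and the ribosomal protein genes RP1, AT3G09200, emb2386 and AT5G20290 at 1330 to 1571 CPM. Of the 50-base windows of AT5G60390, 5.97% occur again in the genome. The chaperone HSC70-1 stood at 3628, 3287 and 4102 CPM, the polyubiquitin genes UBQ10 and UBQ3 at 1458 ± 183 and 1421 ± 120 CPM, and AAC1, which exchanges ADP and ATP across the inner mitochondrial membrane, at 3012, 3137 and 3141 CPM. Among redox and stress proteins, GSTF8, a glutathione S-transferase, ran at 1370, 1533 and 2005 CPM, highest in replicate 4, and the ascorbate peroxidase APX1 at 1418 ± 115 CPM. ANNAT1, an annexin, was nearly the same in all libraries at 1524, 1529 and 1535 CPM.

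**Figure D2:**
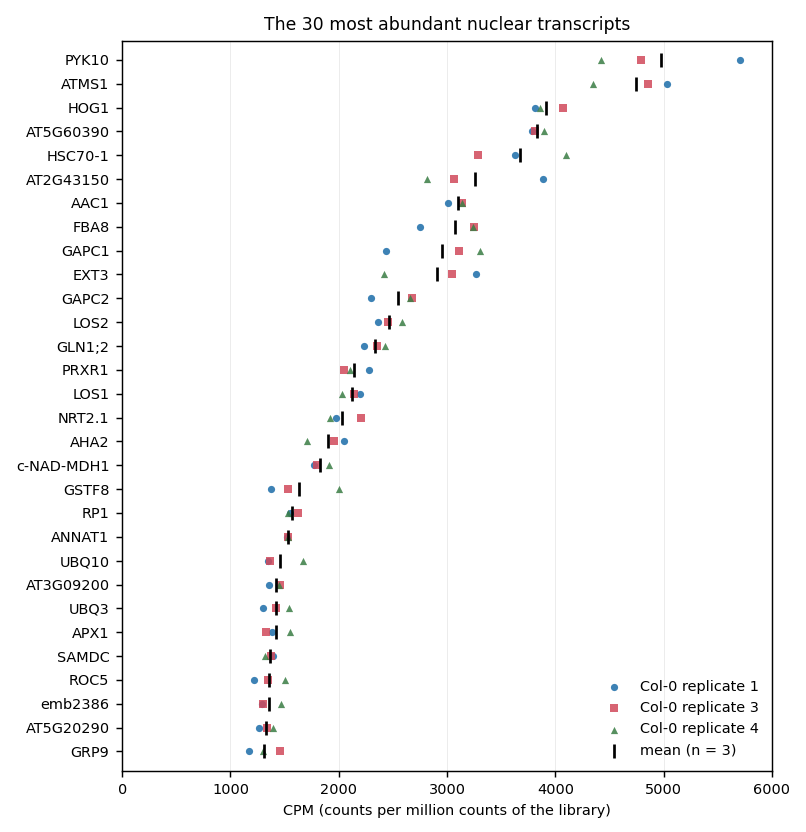
CPM of the 30 nuclear genes with the highest mean CPM (x axis, linear from 0; genes on the y axis in rank order), with a point for each of Col-0 replicates 1, 3 and 4 and a bar for their mean. PYK10 leads at a mean of 4972 CPM, and GRP9 closes the list at 1309 CPM.

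Nitrogen genes and cell wall genes both reached the top 30. The glutamine synthetase gene GLN1;2 ranked 13 at 2234, 2353 and 2427 CPM, the nitrate carrier gene NRT2.1 ranked 16 at 1975, 2203 and 1920 CPM, and the plasma membrane proton pump gene AHA2, which powers such carriers, ranked 17 at 2048, 1960 and 1708 CPM. The wall was represented by the extensin-like gene AT2G43150 at 3885, 3062 and 2818 CPM, by EXT3 at 3263, 3050 and 2414 CPM and by the secreted peroxidase PRXR1 at 2281, 2045 and 2104 CPM. AT2G43150 and EXT3 ranked the second and the fifth per kb of exon. Another gene covers 29.2% of the exons of EXT3.

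Extensins are rod-like wall glycoproteins built on repeats of a serine followed by 4 prolines, and these repeats are read directly from the coding sequences, shown because both genes stand among the 10 most abundant. Proline codons made up 42.5% of the 212 codons of AT2G43150, rank 6 among 27390 coding sequences, and 36.7% of the 431 codons of EXT3, rank 17. The median gene had 4.55%. The serine and 4-proline unit occurred 22 times in AT2G43150 and 28 times in EXT3. The most proline-rich 50 codons of each follow from the TAIR10.1 genome (RefSeq), 5′ to 3′ on the coding strand, with proline codons in capitals. They are codons 36 to 85 of AT2G43150 (chr2:17945998-17946147, plus strand) and codons 67 to 116 of EXT3 (chr1:7454641-7454790, minus strand).
AT2G43150: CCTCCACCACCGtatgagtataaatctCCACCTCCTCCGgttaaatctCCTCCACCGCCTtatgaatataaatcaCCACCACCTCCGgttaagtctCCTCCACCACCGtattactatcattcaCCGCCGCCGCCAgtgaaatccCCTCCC
EXT3: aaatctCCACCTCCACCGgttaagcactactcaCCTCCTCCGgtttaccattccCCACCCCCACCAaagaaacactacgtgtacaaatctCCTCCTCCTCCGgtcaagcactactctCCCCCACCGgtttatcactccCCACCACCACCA
The stretches hold 26 proline codons in AT2G43150 and 22 in EXT3, set between serine, tyrosine, lysine, valine and histidine codons, with glutamate codons in AT2G43150 as well.

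Length changed the picture little at the very top and more below it. Ranked by CPM per kb of exon, PYK10, AT2G43150, AAC1, HOG1, EXT3, GAPC1, GRP9, AT5G60390, FBA8 and HSC70-1 led, and 58 genes stood in the top 100 by both measures. AHA2, which has long exons, ranked 17 by CPM and 123 per kb, and NRT2.1 ranked 16 and 31. Short transcripts gained, among them the translationally controlled tumor protein gene TCTP at 1204 ± 121 CPM per kb, the nucleoside diphosphate kinase NDPK1 at 1194 ± 142 CPM per kb and the cyclophilin ROC5 at 1222 ± 128 CPM per kb. Ribosomal protein genes, elongation factors left out, supplied 18 of the top 100 by CPM and 39 of the top 100 per kb.

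By class, the 321 genes with ribosomal protein in their product name held 7.37% of nuclear counts. They include 2 elongation factor genes, among them LOS1, and the other 319 held 7.09%. The peroxidase superfamily as matched by product held 1.09%, tubulins and actins 0.905%, translation elongation factors 0.795% and the extensin-like genes 0.717%. Metallothioneins came to 0.0713%. In that sum MT1A was listed at 0, and its exons lie wholly within those of AT1G07590, which runs on the same strand.

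Genes covered by the exons of another gene had few counts. Of 561 protein-coding genes with at least 90% of their exon bases covered by another gene, 97.9% were under 1 CPM, and of 552 genes covered to 50% to 90%, 69.0% were. Among the 19821 uncovered genes the share was 34.0%. The library kit does not mark strand, so the genes of such a pair cannot be told apart. The ammonium transporter AMT1;1 is the case that touches a family below. Its exons (chr4) are covered to 98.4% by the lncRNA AT4G13505 on the opposite strand, and it had 7, 7 and 9 counts. MYC2, the jasmonate transcription factor, is covered to 98.5% and was listed at 0. Of all list members, 31 were covered to at least 50%, and 16 of these were under 1 CPM. Their listed levels are therefore not read as low expression.

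High-affinity nitrate uptake was represented mainly by NRT2.1 and its partner. Per kb of exon, NRT2.1 stood at 936, 1044 and 910 CPM per kb and made up 59.2% of the summed level of its family, and its partner NRT3.1 followed at 462, 550 and 521 CPM per kb. NRT2.2 had 61.3, 97.9 and 71.6 CPM per kb and NRT2.4 62.8, 85.5 and 71.6 CPM per kb. The ranges of NRT2.2 and NRT2.4 overlapped, so these neighbours are not ordered, while NRT2.1 and NRT3.1 stood clear of each other and of the rest. Of the 50-base windows of NRT2.1 and NRT2.2, 8.86% and 11.1% occur again in the genome. NRT2.7, NRT2.5, NRT2.6 and NRT2.3 were at 0.150 to 2.98 CPM. In the NPF family, the xylem loader NPF7.3 led at 294, 230 and 273 CPM per kb, ahead of the dual-affinity nitrate carrier and sensor NPF6.3 at 134, 85.5 and 85.3 CPM per kb. NPF8.3, a dipeptide transporter, followed at 47.0 ± 0.408 CPM per kb and NPF2.11, a glucosinolate transporter, at 36.3 ± 2.34 CPM per kb, with 22 of 27 members at 1 CPM or more. Among chloride channel homologs that move nitrate into the vacuole or across other membranes, CLC-B at 64.3 ± 6.02 CPM per kb was above CLC-C and CLC-A, whose ranges overlapped.

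All 7 nitrate reduction genes were well expressed. The root ferredoxin FD3 was at 459, 726 and 641 CPM per kb, its reductase RFNR2 at 371, 532 and 465, nitrite reductase NIR1 at 335, 490 and 383 and the nitrate reductase NIA2 at 205, 237 and 195 CPM per kb. FD3, RFNR2 and NIR1 overlapped as neighbours, and NIR1 and NIA2 did not. The other nitrate reductase, NIA1, stood at 95.5 CPM per kb, and UPM1, which makes the siroheme of nitrite reductase, at 105 ± 13.7 CPM per kb. All 7 genes were highest in replicate 3, as were all 4 measured members of the NRT2/NRT3 family and 4 of 5 of the ammonium and urea transporters. Replicate 3 was the highest library for 26.2% of all 15419 genes with a mean of at least 5 CPM. None of the 7 ranged over 2-fold between libraries, the largest ratio being 1.58 for FD3.

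Cytosolic glutamine synthetase led ammonium assimilation. GLN1;2 was at 1325, 1396 and 1439 CPM per kb and GLN1;1 at 672, 694 and 757 CPM per kb, and their ranges stood apart. GLN1;3 at 136 ± 8.40, the NADH-dependent glutamate synthase GLT1 at 134 ± 33.6 and the plastid enzyme GLN2 at 124 ± 3.48 CPM per kb overlapped as neighbours. GLT1 was 172, 124 and 107 CPM per kb in the libraries. The ferredoxin-dependent enzyme of roots, GLU2, at 100.6 CPM per kb stood far over its leaf counterpart GLU1 at 1.47. Of the asparagine synthetases, ASN3 and ASN2 had 87.3 ± 2.497 and 71.5 ± 2.98 CPM and ASN1 34.8 ± 8.76 CPM. Among the ammonium and urea transporters, AMT1;3 led at 143, 151 and 129 CPM per kb. AMT1;2 at 57.5, 83.1 and 62.0 CPM per kb and the urea transporter DUR3 at 59.0, 42.5 and 42.4 CPM per kb overlapped, and AMT2;1 followed at 23.8 ± 4.44 CPM per kb. AMT1;4, which has no covering gene, had 3, 5 and 4 counts.

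AAP2 and UMAMIT18 led their families of amino acid carriers clear of the next member. AAP2, an amino acid permease of the vasculature, was at 309, 313 and 312 CPM per kb, 60.8% of the AAP and LHT sum, and LHT1, which takes up amino acids at the root surface, at 50.54, 62.97 and 54.16 CPM per kb. AAP4 had 42.2 ± 3.60 CPM per kb and AAP5 24.3 ± 2.88, and AAP5 overlapped AAP1. UMAMIT18 at 368, 442 and 418 CPM per kb and UMAMIT5, also known as the vacuolar auxin transporter WAT1, at 194, 194 and 169 CPM per kb headed 44 UMAMIT genes, of which 36 reached 1 CPM. UMAMIT17 at 94.7, 53.0 and 82.2 CPM per kb overlapped UMAMIT30 at 56.1, 55.2 and 74.2. The glutamine dumper genes GDU3 at 46.9 ± 6.30 and GDU1 at 35.6 ± 5.76 CPM per kb overlapped. NLP6 led the nitrate-responsive NLP regulators at 33.20, 30.03 and 26.61 CPM per kb, over NLP7 at 23.58, 20.52 and 19.91, while NLP4, NLP2 and NLP3 overlapped between 13.6 and 16.5 CPM per kb on average.

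The CEPD genes themselves were scarce in these roots. They encode glutaredoxins that travel from shoot to root when nitrogen is short. ROXY6 was at 5.17, 5.66 and 5.87 CPM, ROXY8 at 1.26, 1.13 and 2.37 CPM and ROXY7 at 0.738, 0.644 and 0.208 CPM. ROXY9 had 0, 1 and 0 counts, with 36.0% of its exon bases covered by another gene. The genes that the study followed as their targets are given with them. CEPH, a phosphatase acting on NRT2.1, stood at 101.9, 184.3 and 149.9 CPM, UMAMIT35 at 14.7, 19.3 and 17.2 CPM, NLP3 at 31.1, 39.6 and 39.4 CPM and AMT1;5 at 5.38, 11.4 and 9.90 CPM. AMT1;5 was past the 2-fold range described below, at a ratio of 2.03 between replicates 3 and 1, and CEPH was not, at 1.804. Of the 8 genes of this group at 5 CPM or more, 7 were lowest in replicate 1 and 7 highest in replicate 3, against 37.5% and 26.2% of all genes. The group includes NRT2.1, NRT2.2, NRT2.4 and AMT1;5, already counted above as highest in replicate 3 within their families.

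**Figure D3:**
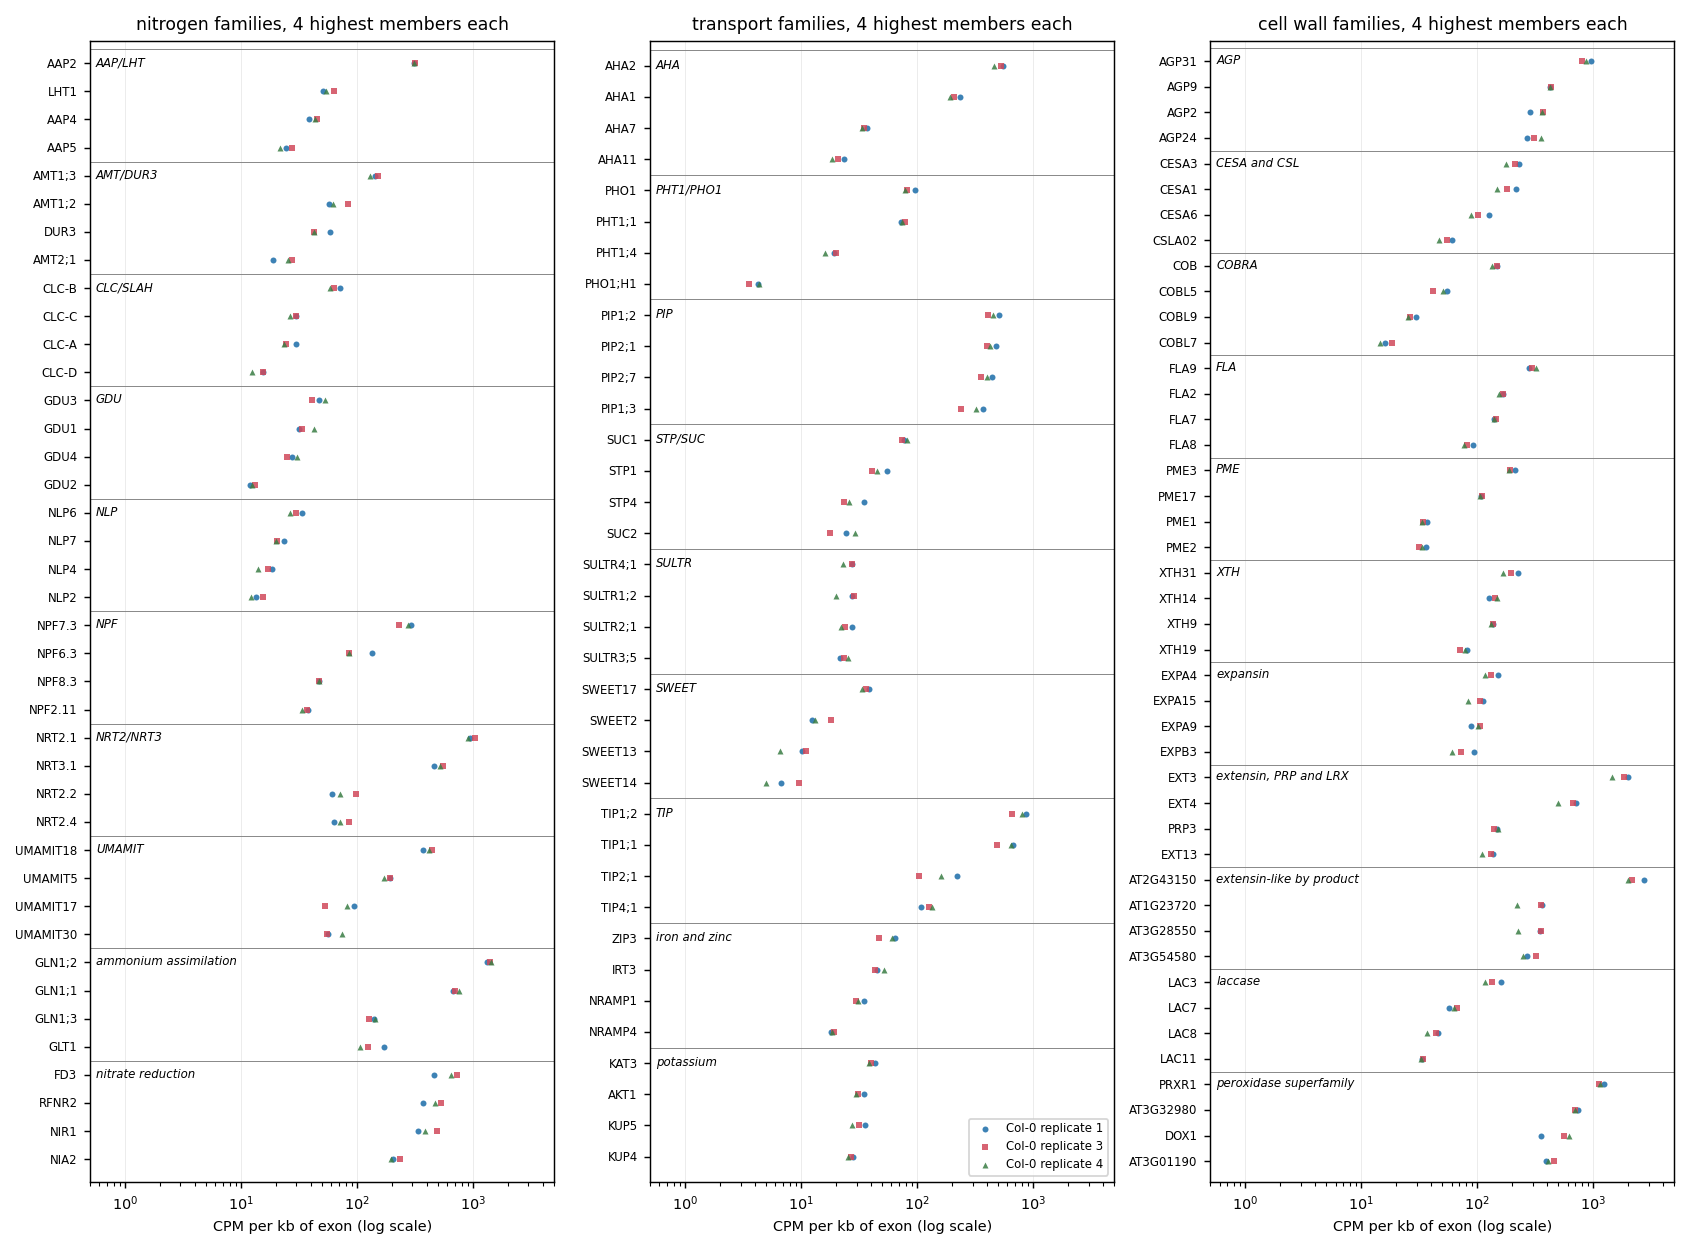
Levels in CPM per kb of exon (x axis, log scale) of the 4 highest members of each nitrogen, transport and cell wall family (rows, grouped by family), with a point for each of Col-0 replicates 1, 3 and 4. GLN1;2, NRT2.1, TIP1;2, AGP31, AT2G43150, EXT3 and PRXR1 stand clear of the rest of their families or share the lead with a near neighbour.

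Among the transport families other than those of nitrogen, proton pumps and aquaporins stood highest per kb. AHA2 at 554, 530 and 462 CPM per kb and AHA1 at 234, 210 and 193 CPM per kb stood apart, and AHA2 made up 63.6% of the sum over 11 pump genes. All 13 PIP plasma membrane aquaporins were detected, with PIP1;2 at 506, 407 and 449, PIP2;1 at 478, 396 and 421 and PIP2;7 at 441, 354 and 400 CPM per kb. PIP1;3 followed at 372, 239 and 318 CPM per kb, and the ranges of all 4 overlapped from each to the next. Of the tonoplast aquaporins, TIP1;2 at 868, 662 and 796 CPM per kb overlapped TIP1;1 at 669, 492 and 645, and TIP2;1 at 221, 104 and 160 overlapped TIP4;1 at 108, 125 and 133. Both aquaporin families ran low in replicate 3, which was the lowest library for 11 of 13 PIP and 5 of 6 TIP genes, against 25.8% of all genes.

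The carriers of phosphate, sulfate, metals, potassium and sugars stood lower per kb than the leading pump and aquaporin genes. PHO1, which loads phosphate into the xylem, at 85.3 ± 9.89 CPM per kb overlapped the uptake carrier PHT1;1 at 74.9 ± 2.65 CPM per kb. Of the 50-base windows of PHT1;1, 42.5% occur again in the genome, so its level and that of PHT1;2 are uncertain. The 4 leading sulfate transporters could not be ordered, SULTR4;1 at 25.9 ± 2.67, SULTR1;2 at 25.4 ± 4.61, SULTR2;1 at 24.5 ± 2.89 and SULTR3;5 at 23.4 ± 1.79 CPM per kb. The zinc transporter ZIP3 at 57.4 ± 9.37 overlapped IRT3 at 46.6 ± 4.95 CPM per kb, ahead of the manganese carrier NRAMP1 at 31.7 ± 2.48 and NRAMP4 at 18.5 ± 0.680. Among potassium genes, KAT3, a regulatory channel subunit, was at 40.7 ± 2.59 CPM per kb, ahead of the inward channel AKT1 at 31.9 ± 2.63 and KUP5 at 31.5 ± 3.93, which overlapped, and of KUP4 at 26.7 ± 1.12. The sucrose carrier SUC1 at 77.6 ± 3.42 CPM per kb was ahead of STP1 at 46.7 ± 7.30, and the vacuolar fructose carrier SWEET17 at 35.9 ± 2.59 ahead of SWEET2 at 14.4 ± 3.01 CPM per kb. Of 17 SWEET genes, 5 had no count in any library.

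Genes of primary wall cellulose synthase led the cellulose synthase list, and EXT3 and AT2G43150 led the lists of extensins. CESA3 at 229, 212 and 178 and CESA1 at 213, 180 and 147 CPM per kb overlapped, and CESA6 followed at 125, 100 and 88.9, the subunits of primary wall cellulose synthase. COB, which is needed for oriented cellulose deposition, was at 149, 149 and 135 CPM per kb. EXT4 at 708, 663 and 492 CPM per kb came after EXT3 at 1973, 1844 and 1460, and PRP3, a root hair wall protein, at 146 ± 6.11. In the extensin-like list, AT1G23720, AT3G28550 and AT3G54580 at 280 to 311 CPM per kb on average came far below AT2G43150 at 2307 ± 396. They overlapped as neighbours except for AT3G54580 and the next gene. Of the 50-base windows of AT3G28550 and AT3G54580, 24.1% and 30.1% occur again in the genome. The extensin list and the extensin-like list, which share members such as EXT13, were low in replicate 4, where 9 of 12 and 9 of 13 measured members had their lowest value, against 36.7% of all genes.

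Arabinogalactan proteins and wall-loosening enzymes had several members of like level. AGP31 led at 963, 795 and 866 CPM per kb, ahead of AGP9 at 425, 432 and 426, and AGP2 and AGP24 overlapped at 336 ± 45.6 and 308 ± 43.4. FLA9 at 299 ± 20.4, FLA2 at 163 ± 7.18, FLA7 at 141 ± 2.75 and FLA8 at 83.4 ± 7.66 CPM per kb kept apart. XTH31, a xyloglucan-modifying enzyme gene, was at 226, 194 and 166 CPM per kb, with XTH14 at 138.6 ± 11.03 and XTH9 at 135 ± 3.18 overlapping after it. EXPA4 led the expansins at 133 ± 18.1 CPM per kb, ahead of EXPA15 at 100.1 ± 15.2, EXPA9 at 98.3 ± 9.35 and EXPB3 at 75.5 ± 16.7, which overlapped, and 8 of 36 expansins had no count. The pectin methylesterase PME3 was at 197.4 ± 13.05 and PME17 at 108 ± 1.54 CPM per kb. The laccase LAC3 stood at 137 ± 22.9 and LAC7 at 61.9 ± 5.12. In the peroxidase list, PRXR1 at 1247, 1118 and 1150 CPM per kb and AT3G32980 at 738, 693 and 702 were ahead of DOX1, an alpha-dioxygenase that the product name brought into the list, at 352, 557 and 623 CPM per kb.

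Levels were close between the libraries for most genes, and the differences ran with transcript length. Over the 15419 genes with a mean of at least 5 CPM, the median SD of log2(CPM + 0.5) was 0.13 and the median ratio of the highest to the lowest library was 1.18. In replicate 1, the median log2 deviation from the mean of the other libraries was -0.21 for the 1524 genes with under 1 kb of exon, -0.07 for the 7304 genes of 1 to 2 kb, 0.08 for the 4418 of 2 to 3 kb, 0.26 for the 1877 of 3 to 5 kb and 0.54 for the 296 of 5 kb or more. Replicate 4 ran the other way, at 0.20 for the shortest and -0.43 for the longest class, and replicate 3 stayed between -0.10 and 0.01. Of the longest genes, 94.9% were highest in replicate 1. What makes the libraries differ by length was not tested, and RNA integrity values were not used here.

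**Figure D4:**
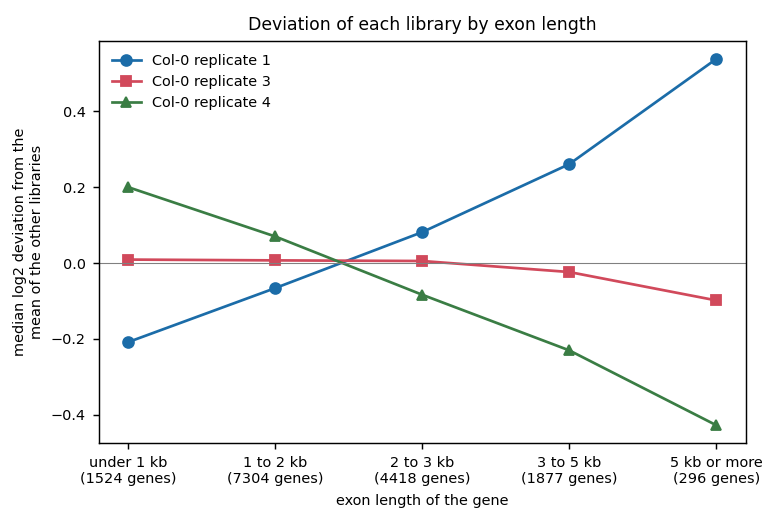
Median log2 deviation of each Col-0 library from the mean of the other libraries (y axis) by exon length of the gene (x axis, 5 classes with their numbers of genes). Replicate 1 climbs from -0.21 to 0.54 and replicate 4 mirrors it, while replicate 3 stays near 0.

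Some gene groups deviated about as much as other genes of their length, and others did not. The ribosomal protein class, with a median of 1035 bases of exon, summed to 67921, 74794 and 78392 CPM, and 237 of the 283 measured were lowest in replicate 1. Their median deviation in replicate 1 was -0.19, beside -0.15 for 2297 other genes of like length. The cellulose synthase and related genes, with a median of 2951 bases, deviated by 0.25 in replicate 1, beside 0.18 for other genes of like length. The nuclear photosynthesis genes went against their length, at 0.33 in replicate 1 beside -0.11 for others, and so did the PIP genes at 0.23 beside -0.06.

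A range over 2-fold between the highest and the lowest library, on (CPM + 0.5), was found for 245 of the 15419 genes, which is 1.59%. The share was 2.79% at 5 to 10 CPM and 0 of 238 genes at 500 CPM or more. When libraries were taken singly against the log2 mean of the other libraries, replicate 1 was over 2-fold lower for 0.668% of genes and over 2-fold higher for 0.162%, replicate 3 lower for 0.233% and higher for 0.233%, and replicate 4 lower for 0.0259% and higher for 0.305%. Assigned to the library that deviated most, 95 genes were low in replicate 1, 20 high in replicate 1, 23 low and 10 high in replicate 3, and 22 high and 2 low in replicate 4. Without replicate 1 the count past 2-fold was 60, without replicate 3 it was 145 and without replicate 4 it was 157. With each library centred within bins of exon length, 213 genes were past 2-fold, 199 of them among the 245.

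Genes low in replicate 1 led the ranking by SD. AT2G04050, a MATE efflux carrier gene, had 0.132, 23.0 and 18.1 CPM, and its neighbours in the same gene cluster, AT2G04070 and DTX1, had 0.712, 26.9 and 19.0 CPM and 1.13, 9.73 and 7.88 CPM. The SD of log2(CPM + 0.5) was 2.92, 2.47 and 1.45 for AT2G04050, AT2G04070 and DTX1. Only 5 counts of AT2G04050 and 27 of AT2G04070 were in replicate 1. Of the 50-base windows of AT2G04050, AT2G04070 and DTX1, 3.57%, 3.24% and 7.09% occur again in the genome. Genes of indolic defence metabolites followed. CYP82C2 had 0.633, 7.03 and 16.1 CPM, CYP71A12 4.19, 31.5 and 60.5 CPM, FOX1 1.00, 9.71 and 11.5 CPM and GSTF6 5.587, 17.38 and 37.84 CPM. In all of them replicate 1 was the lowest by a wide margin, and the other libraries differed by less. Of the 9 measured genes of the camalexin and indole carbonyl nitrile list, 5 were past 2-fold, or 55.6% against 1.59% of all genes. These include CYP82C2, CYP71A12, FOX1 and GSTF6, already named for their large SD. The list was chosen with earlier results of these data known, so its share is no separate support. Its median deviation in replicate 1 was -1.24. CYP71B15, also past 2-fold, had 11.2, 26.9 and 27.2 CPM. Other members of the list did not share this pattern. CYP79B2 at 250, 205 and 155 CPM and CYP79B3 at 131, 86.8 and 71.3 CPM were highest in replicate 1. GGP1 at 155, 158 and 177 CPM and WRKY33 at 23.4, 35.2 and 28.9 CPM were lowest there by less.

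Glutathione S-transferase and NAC genes, groups picked after their values were seen, were also low in replicate 1. Of 39 measured glutathione S-transferase genes by product, 8 were past 2-fold, against 1.59% of all genes. All of them deviated most in replicate 1 and were low there, against 95 of all 15419 genes. There 29 of the 39 had their lowest value, against 37.5% of all genes. The share lowest in replicate 1 was 73.6% over all genes under 1 kb of exon and 50.4% over those of 1 to 2 kb. Of the 50-base windows of GSTF6 and GSTF7, 10.3% and 10.04% occur again in the genome. The group includes GSTF7 at 8.539, 29.04 and 56.22 CPM and GSTU9 at 40.64, 89.67 and 90.27 CPM. Of 42 NAC genes, 35 were lowest in replicate 1, against the same 37.5%. Neither group was set beside other genes of like length. Other genes of this pattern among the 20 most variable were AT1G18830 at 0.132, 6.19 and 8.68 CPM, AT1G26390 at 1.19, 10.9 and 19.5 CPM, AT4G12735 at 0.527, 6.78 and 8.08 CPM, AT2G38823 at 3.98, 27.2 and 27.3 CPM, AT2G41730 at 2.82, 15.6 and 23.0 CPM, CYP81D8 at 2.504, 15.07 and 18.25 CPM and EMB1030 at 9.38, 50.7 and 44.6 CPM. At higher levels, the sulfotransferase SOT12 had 34.4, 85.6 and 90.2 CPM and BGLU11 27.0, 62.3 and 70.9 CPM. The 95 genes low in replicate 1 had a median of 1590 bases of exon, against 1856 for all genes.

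Since the study concerns TGA factors, which bind TGACG, the 250 bases before the annotated start of each gene were searched for these letters on both strands. They occurred for 29 of the 95 genes low in replicate 1, or 30.5%, and for 2965 of 15359 protein-coding genes at 5 CPM or more, or 19.3%. Other letters searched in the same 95 genes were also more frequent, with GAANNTTC or TTCNNGAA for 21.1% against 15.5% and CACGTG for 10.5% against 7.41%. The windows of the carriers with the largest SD are given from TAIR10.1 (RefSeq), 5′ to 3′ on the gene's strand, with the match in capitals, here read as CGTCA from the other strand. They lie at chr2:1339469-1339718 for AT2G04050 and chr2:1355884-1356133 for AT2G04070, both on the minus strand.
AT2G04050: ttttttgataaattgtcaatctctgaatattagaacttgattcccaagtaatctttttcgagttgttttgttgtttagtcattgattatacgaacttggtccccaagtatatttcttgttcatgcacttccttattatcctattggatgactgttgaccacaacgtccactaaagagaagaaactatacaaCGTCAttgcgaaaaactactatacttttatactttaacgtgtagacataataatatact
AT2G04070: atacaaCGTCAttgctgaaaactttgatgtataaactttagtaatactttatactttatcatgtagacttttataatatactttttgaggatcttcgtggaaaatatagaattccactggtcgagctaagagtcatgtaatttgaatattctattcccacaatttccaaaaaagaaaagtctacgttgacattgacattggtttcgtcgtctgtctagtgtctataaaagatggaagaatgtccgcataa
Each window has 1 match, within the same 15 letters, atacaaCGTCAttgc, in both. A match is a description of the sequence and does not show a site in use.

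Genes of the heat shock list were high in replicate 4. HSP90.1 had 35.9, 35.6 and 218 CPM, HSP70 140, 125 and 504 CPM, HSP101 22.5, 15.3 and 59.4 CPM and the heat stress factor HSFA2 3.48, 3.24 and 21.2 CPM. All 4 measured genes of the heat shock list were past 2-fold and highest in replicate 4. Of these, HSFA2 passed the minimum mean of 5 CPM only through that library. The list, chosen with earlier results of these data known, summed to 812 CPM in replicate 4, against 206 and 184 CPM in replicates 1 and 3. AT5G51440, a small heat shock protein gene, had 16.1, 27.6 and 135 CPM, AT1G07400 of the same class 0.975, 1.74 and 14.0 CPM, and Fes1A, a co-chaperone, 30.9, 37.8 and 94.2 CPM. Below the minimum of 5 CPM, HSP17.6 had 12, 20 and 117 counts and HSP23.6 had 4, 6 and 69, while HSP21 had 2 counts in all and HSP22 none. HSP18.2, also below the minimum, was level, at 4.27, 3.81 and 3.85 CPM. AT1G07400, like HSFA2, passed the minimum only through replicate 4. HSC70-1, of rank 5, ranged over 1.25-fold only. Chaperones at large shared the pattern only in part. The 148 measured HSP20, HSP70, HSP90 and DnaJ genes by product were a group picked after its values were seen. Of these, 10 deviated most in replicate 4 and were over 2-fold high there, against 22 of all 15419 genes. In the group, 72 were highest in replicate 4, against 35.2% of all genes, and 48 in replicate 1, against 38.6%.

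Heat stress factors bind repeats of GAA and TTC, searched here as GAANNTTC or TTCNNGAA on both strands. Of the 22 genes high in replicate 4, 6 had a match in the 250 bases before the start, or 27.3%, against 15.5% of protein-coding genes at 5 CPM or more. The windows of AT5G51440 (chr5:20891008-20891162) and HSFA2 (chr2:11135466-11135623), both on the plus strand, are shown as examples that have a match. Other genes several-fold higher in replicate 4, such as HSP90.1, HSP70 and AT1G07400, are not shown. Each ends at the annotated start and is cut short at the neighbouring gene, with matches in capitals.
AT5G51440: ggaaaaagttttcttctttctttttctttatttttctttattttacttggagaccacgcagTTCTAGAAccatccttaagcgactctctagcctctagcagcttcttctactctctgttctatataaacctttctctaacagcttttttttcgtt
HSFA2: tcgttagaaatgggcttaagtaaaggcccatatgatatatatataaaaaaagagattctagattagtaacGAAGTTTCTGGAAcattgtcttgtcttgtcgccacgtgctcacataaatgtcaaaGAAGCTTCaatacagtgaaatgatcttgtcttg
AT5G51440 has 1 match and HSFA2 has 3, of which the 2 upstream ones overlap in a single run of capitals.

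Fewer genes were high in replicate 3. ELIP1, an early light-induced protein, had 63.1, 145 and 54.6 CPM, UGT84A2, which glucosylates hydroxycinnamates, 86.7, 149 and 59.8 CPM, and the glycosyltransferase gene AT2G22590 6.48, 27.8 and 2.37 CPM. Of 81 measured UDP-glycosyltransferase genes, a group picked after seeing the values, 8 were past 2-fold, against 1.59% of all genes. Of these, 4 deviated most in replicate 3 and were high there, against 10 of all 15419 genes. High in replicate 1 were the annexin ANNAT4 at 100.8, 35.93 and 56.51 CPM, the ubiquitin ligase UPL1, with 11404 bases of exon, at 136, 73.5 and 53.9 CPM, and the tonoplast aquaporins TIP2;2 at 203, 89.5 and 97.4 CPM and TIP2;3 at 24.0, 8.50 and 9.30 CPM. TIP2;1, the third of 6 measured TIP genes past 2-fold, spread over all libraries at 263, 124 and 191 CPM. TIP4;1 was lowest in replicate 1, at 127, 147 and 156 CPM.

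**Figure D5:**
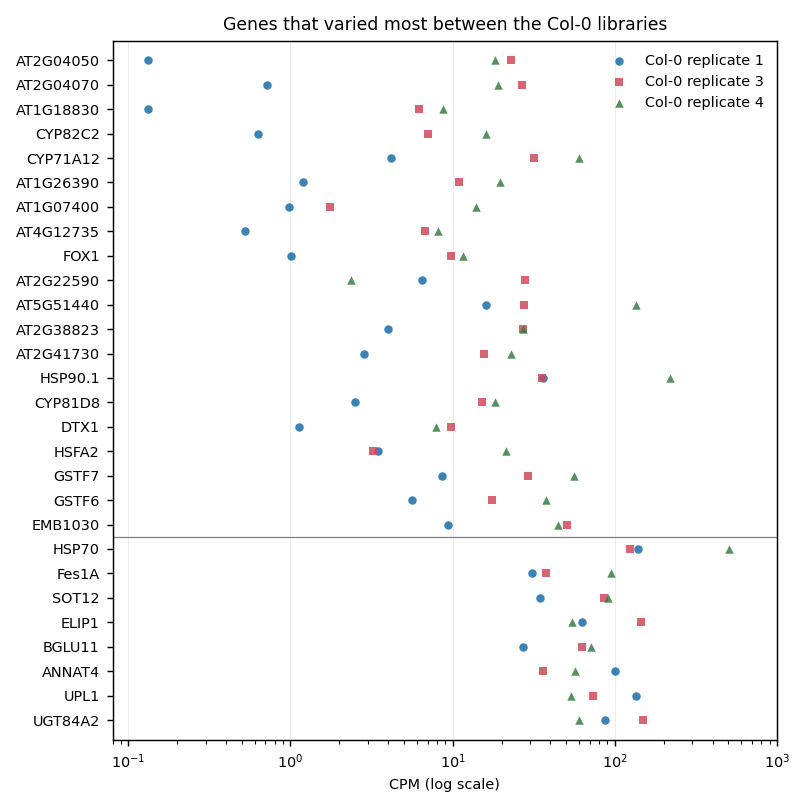
CPM (x axis, log scale) of the 20 genes with the largest SD of log2(CPM + 0.5) at a mean of at least 5 CPM (above the line) and of further genes among the 10 with the largest SD at 50 CPM or more (below it), with a point for each of Col-0 replicates 1, 3 and 4. Most genes of the upper set are low in replicate 1, such as AT2G04050 at 0.132 CPM, while HSP90.1, AT5G51440, HSFA2 and AT1G07400 are high in replicate 4.

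Beside the heat shock, camalexin and TIP lists, the low oxygen list had 3 of 9 past 2-fold, or 33.3%. The rapid calcium and touch list had 2 of 9, or 22.2%, and the peroxidases 3 of 53, or 5.66%. Further lists had a single gene past it, among them 1 of 5 in the salicylic acid list and 1 of 5 ammonium and urea transporters. It was 1 of 8 of the study's genes, 1 of 13 extensin-like genes and 1 of 15 in the iron deficiency list. The share of all genes was 1.59%. None was past 2-fold among the AAP and LHT, AGP, AHA, cellulose synthase, NLP, NRT2 and NRT3, PIP, SULTR, XTH or laccase genes. These lists had 4 to 26 measured genes each, too few for a share of 1.59% to show. At the other end, the 10 genes at 50 CPM or more with the smallest SD included KCR1, a reductase of very-long-chain fatty acid synthesis, at 212 CPM in each library, ANNAT1, the mitochondrial ATP synthase gene AT5G08690 at 797, 801 and 799 CPM, the potassium channel subunit KAB1 at 146, 146 and 145 CPM and GSA1, a tetrapyrrole enzyme gene, at 56.7, 56.5 and 56.7 CPM.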

How the data were processed

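Total RNA of roots was made into unstranded TruSeq v2 libraries. The authors deposited raw counts per gene for each sample; their processing notes name CASAVA 1.8.2, STAR 2.5.2b-2, HTSeq 0.9.1, DESeq2 2.11.40.6 and the build TAIR10. The counting mode, strand setting and treatment of reads with several hits are not given in the sources used here. From the deposited counts of the 3 Col-0 samples, CPM was computed on the total of all gene rows, with no test, since a single group was described. Levels of different genes were compared per kb of the union of annotated exons (RefSeq, TAIR10.1), and neighbours were not ordered where their ranges over the 3 libraries overlapped. Variation was measured as the SD and range of log2(CPM + 0.5) at a mean of at least 5 CPM. The calculation was tested on simulated data. Shared sequence was the share of 50-base exon windows that occur again in the genome on either strand, whether in the same gene or elsewhere.

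Named were the 30 highest genes by CPM and the 20 per kb, the 4 highest members of each family, the 20 most variable genes, the 10 most and 10 least variable at 50 CPM or more, up to 4 members of each list with over 1 in 3 past 2-fold, the study's own genes and the markers; a few others were named after their values were seen. Members and lists were chosen with earlier results of these data known. Of the listed names, 19 found no match. Alternatives used TMM factors (edgeR 4.0.16 in R 4.3.3) and DESeq2 1.42.0 size factors, other minima and pseudocounts, and leaving out each library; 2 were added after seeing the data, namely exon bases that no other gene covers and centring by exon length. Python 3.11.15, pandas 2.3.3 and numpy 2.4.6 were used. The cepd samples were not used.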

Additional observations from a re-analysis of the deposited data

How the results depend on the processing

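No paired analysis was possible because a single group was described and no result came from a test. The share of the top 10 was 3.05% and that of the top 100 15.03% when genes were ranked by, and shares taken of, CPM per kb; TMM and DESeq2 factors moved neither beyond the spread of the libraries, and leaving out a library gave 3.60% to 3.69% and 14.0% to 14.2%. The count of genes past 2-fold was 401 at a minimum of 1 CPM, 42 at 50 CPM and 461 with no filter, since the set of genes changes, and 60 to 157 without a library, being 60 without replicate 1. Pseudocounts of 0.1 and 2 CPM gave 267 and 197 genes, TMM and DESeq2 factors 246 and 244, and length centring 213. Of the 20 most variable genes, 2 remained at a minimum of 50 CPM, which leaves most of them out, and 18 to 20 under the other settings. The first member was the same in 26 of 30 families by CPM without length, where SULTR1;2, IRT3, NIR1 and AKT1 led instead, and in 29 or 30 under the other settings. Depth was high, so counting error matters only for genes near the floor. The limits lie in the 3 libraries, in the length trend between them and in genes covered by other genes.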
